A study of Mus musculus with 34 samples.

Results

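The 6 actin genes of the mouse were followed through chromatin maps of C2C12 cells, an established mouse myoblast line that fuses into muscle fibres on differentiation. The genes are Actb, Actg1, Acta2, Actg2, Acta1 and Actc1, chosen by name from the 21631 annotated protein-coding genes that were counted. Each was described over its annotated span and 10 kb on either side, which took in 180 bins of 1 kb out of 2631630 in the genome, 60 of them over the gene spans themselves. The maps were made by multi-target chromatin integration labelling (mtChIL-seq), in which a DNA probe coupled to the antibody is inserted by the Tn5 transposase into nearby DNA of fixed cells, and RNA transcribed from the probe into its surroundings is turned into a library.

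H3K4me3 and CTCF were stained together in 10000 and in 1000 cells, and H3K27ac and Pol2S2P, RNA polymerase II phosphorylated in its tail during elongation, in 1000 and in 100 cells (dual staining, n = 3 libraries per target and number of cells). Single staining served for comparison, of CTCF in 10000 cells and of Pol2S2P in 1000 cells (n = 2 each). The antibodies were mouse monoclonals against H3K4me3, H3K27ac and Pol2S2P and a rabbit monoclonal against CTCF. All 10 groups come from the same line, and the labels name no treatment or genotype difference and give neither a growth nor a differentiation stage. The 28 libraries held 719766 to 6653298 counts each, fewest for H3K4me3 in 1000 cells. Levels are given as CPM per 1 kb bin divided by the genome mean of 0.38 CPM, so that 1 is the genome mean. A mark held in a few bins averages lower over a longer span, so the order of genes by level depends on span length. Among 7 myoblast markers the H3K4me3 level with 10000 cells was 38.8 at Myf5, 6.45 at Des, 4.38 at Cdh15 and 2.81 at Chrna1, but 1.16 at Myod1, 1.06 at Msc and 0.324 at Pax7. It stood at 0.288 to 2.46 at 5 markers of differentiated muscle, 0.439 to 1.02 at 3 of smooth muscle and at most 1.20 at 9 of liver, blood and neurons, and no marker had 0 counts. The myoblast list was thus mixed, with 3 of its 7 genes as low as the markers of other cells.

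Actins polymerise into the thin filaments that give cells their shape and, with myosin, their force. Actb and Actg1 encode the cytoplasmic β and γ actins of nearly every cell, Acta2 and Actg2 the smooth muscle α and γ actins, and Acta1 and Actc1 the α actins of skeletal and cardiac muscle. Myoblasts are known to make the cytoplasmic actins and to switch on Acta1 and Actc1 as they fuse. Serum response factor, which binds a sequence called the CArG box, is a known activator of actin genes, and globular actin in turn holds back its MRTF coactivators. H3K4me3 is known to mark active gene starts, H3K27ac active gene starts and enhancers, Pol2S2P the bodies and 3′ ends of transcribed genes, and CTCF sites that organise chromatin loops.

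The spans lie on 6 chromosomes of GRCm38. Actb is at chr5:142903115-142907976, Actg1 at chr11:120345687-120348495, Acta2 at chr19:34240336-34255585, Actg2 at chr6:83512909-83536251, Acta1 at chr8:123891758-123894775 and Actc1 at chr2:114047282-114052875. RefSeq promoters (GRCm38.p6) were held for 4 of the 6 genes, all on the minus strand. For these the lower-coordinate side is downstream, whereas the orientation of Actb and Actg2 was not used here. The 250 bases upstream of the annotated start follow, 5′ to 3′ on the minus strand. Whether their base composition goes with the chromatin levels was not tested. The window of Acta2 lies mostly inside its annotated span, which reaches beyond the start used here. Capitals mark an exact CArG box, that is CC, then 6 letters that are each A or T, then GG. A match to this pattern on either strand is also a match on the other.
Actg1, chr11:120348496-120348745: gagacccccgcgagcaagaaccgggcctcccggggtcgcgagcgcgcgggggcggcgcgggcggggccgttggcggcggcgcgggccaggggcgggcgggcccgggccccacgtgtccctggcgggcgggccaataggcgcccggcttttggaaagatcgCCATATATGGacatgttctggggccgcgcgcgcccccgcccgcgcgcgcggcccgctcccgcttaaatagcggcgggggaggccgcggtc
Acta2, chr19:34255374-34255623: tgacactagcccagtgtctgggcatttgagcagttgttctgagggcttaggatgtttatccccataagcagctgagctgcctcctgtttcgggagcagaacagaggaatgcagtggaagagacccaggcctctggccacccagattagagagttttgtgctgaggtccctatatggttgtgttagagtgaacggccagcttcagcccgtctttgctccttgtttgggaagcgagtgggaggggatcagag
Acta1, chr8:123894776-123895025: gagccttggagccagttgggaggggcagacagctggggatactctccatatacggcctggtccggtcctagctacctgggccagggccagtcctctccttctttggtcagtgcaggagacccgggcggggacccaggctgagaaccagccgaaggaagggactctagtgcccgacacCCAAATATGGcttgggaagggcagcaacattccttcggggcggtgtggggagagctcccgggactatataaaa
Actc1, chr2:114052876-114053125: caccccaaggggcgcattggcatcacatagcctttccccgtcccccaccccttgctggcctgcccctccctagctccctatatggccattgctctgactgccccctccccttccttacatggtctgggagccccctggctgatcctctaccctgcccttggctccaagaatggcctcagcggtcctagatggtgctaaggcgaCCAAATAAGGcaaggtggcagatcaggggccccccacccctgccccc

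An exact CArG box begins 90 bases upstream of the start in Actg1, 73 in Acta1 and 47 in Actc1, and the window of Acta2 holds no exact match. Of 32851 RefSeq promoters of the same length, 482 (1.47%) hold one. The Actg1 window is 79.2% G and C with an observed-to-expected CpG ratio of 1.11, above 98% of all promoters. The ratio was 0.39 in Acta1, near the median of 0.374 over all promoters, and 0.231 in Acta2 and 0.173 in Actc1, below it. The matches are letters in a window, not measured binding. Near matches were not searched for, so the lack of an exact match does not show that Acta2 lacks such an element.

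Actb carried the highest level per bin of H3K4me3, H3K27ac and Pol2S2P of the 6 genes in all 7 groups with these targets. H3K4me3 over its span stood at 43.0, 45.3 and 41.8 times the genome mean in the 3 libraries of 10000 cells, and at 47.5, 41.9 and 38.7 in those of 1000 cells. CTCF stood at 6.03, 6.53 and 5.72 in 10000 cells, at 5.50, 4.57 and 6.03 in 1000 cells, and at 6.21 and 6.66 with single staining. Every H3K4me3 library lay above every CTCF library, and the ranges of the cell numbers overlapped within both targets.

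Over the same span H3K27ac stood at 13.1, 11.8 and 11.9 times the genome mean in 1000 cells and at 7.75, 12.8 and 14.0 in 100 cells. Pol2S2P stood at 15.5, 19.6 and 18.8 in 1000 cells, at 18.9, 18.4 and 17.1 in 100 cells, and at 36.2 and 34.7 with single staining. The H3K27ac libraries lay below the Pol2S2P libraries in all cases, and the 2 single-stained Pol2S2P libraries lay above all 6 dual-stained ones.

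Actg1, the second cytoplasmic actin, followed Actb in the level of H3K4me3 per bin. Its span stood at 23.5, 27.6 and 34.5 times the genome mean for H3K4me3 in 10000 cells and at 32.9, 28.0 and 30.8 in 1000 cells. For CTCF it stood at 1.77, 2.34 and 1.94 in 10000 cells, at 0.846, 0.807 and 1.15 in 1000 cells, and at 1.02 and 1.45 with single staining. CTCF over Actg1 was thus near the genome mean in 1000 cells and with single staining, and above it with dual staining in 10000 cells. No CTCF library overlapped the H3K4me3 range.

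H3K27ac over Actg1 stood at 4.19, 4.07 and 3.92 times the genome mean in 1000 cells and at 4.72, 4.73 and 2.27 in 100 cells. Pol2S2P stood at 5.05, 8.61 and 5.53 in 1000 cells, at 6.66, 1.67 and 5.59 in 100 cells, and at 16.9 and 11.2 with single staining. In 1000 cells the H3K27ac libraries lay below the Pol2S2P libraries without overlap, whereas in 100 cells the ranges overlapped. The span of Actg1 covers 3 bins, so these libraries rest on few counts. Actb and Actg1 have near-identical copies elsewhere in the genome, and no source used here says what was done with reads that align to several places, so their levels are uncertain to that extent.

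**Figure D1:**
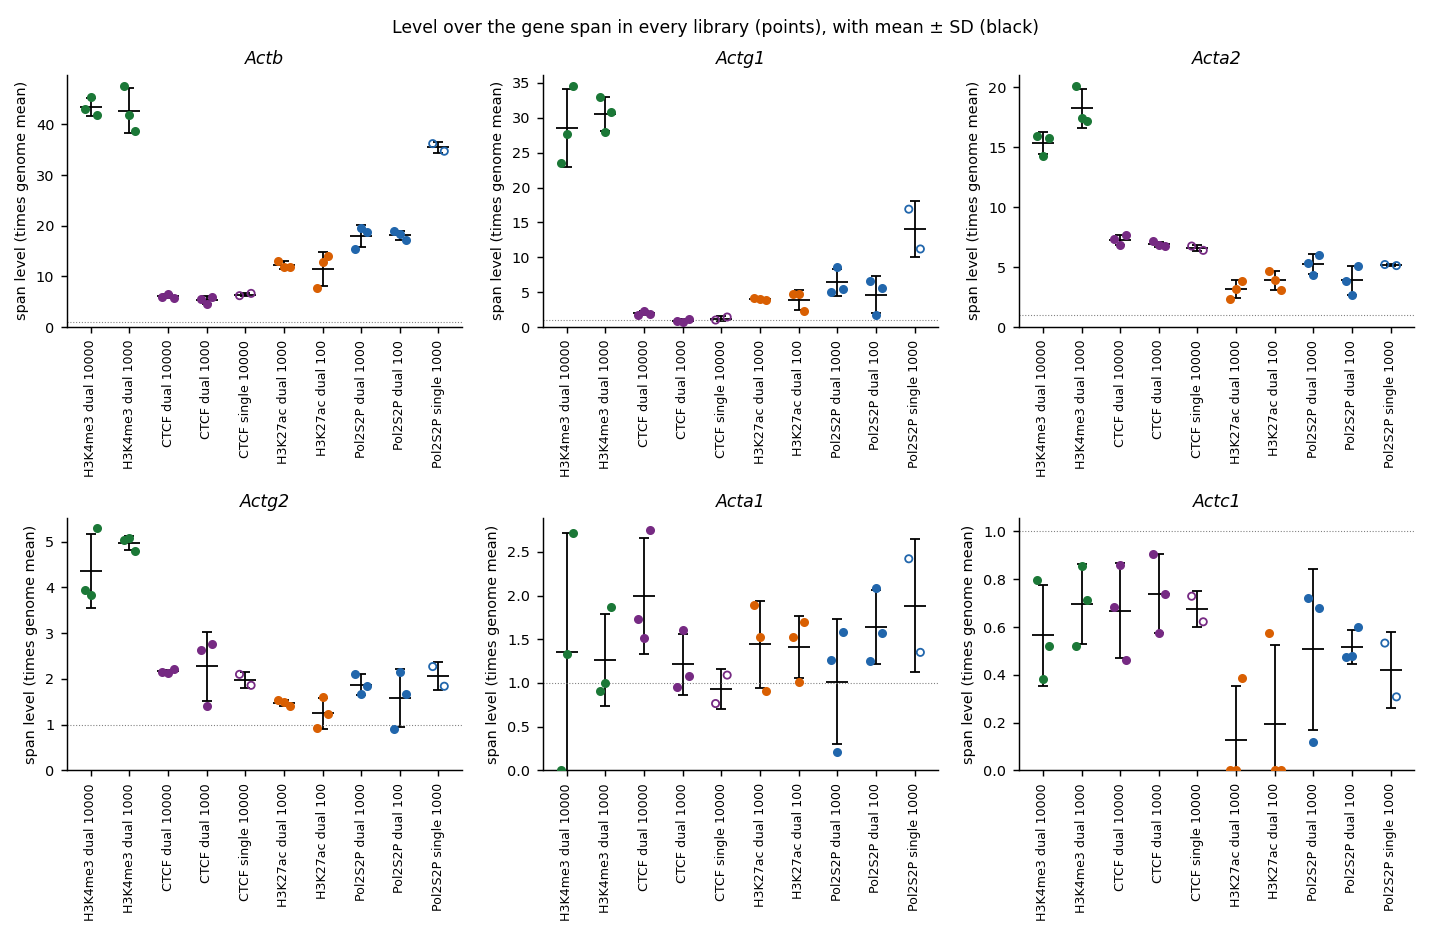
Level of each target over the span of each actin gene, in times the genome mean per 1 kb bin (vertical axis, a scale of its own in each panel), by target, staining and number of cells; points are libraries and bars the mean ± SD (n = 3, or 2 with single staining). Actb is highest for H3K4me3, H3K27ac and Pol2S2P, Acta2 has the highest mean for CTCF, and Actc1 stays below the genome mean in every group mean.

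Among the smooth muscle actins, Acta2 had the highest mean CTCF level of the 6 genes and the third highest H3K4me3 per bin. Summed over the span instead, H3K4me3 in 10000 cells averaged 98.9 CPM at Actb, 93.1 at Acta2, 39.8 at Actg2 and 32.5 at Actg1. In 1000 cells the sums averaged 97.4, 110.7, 45.3 and 34.8 CPM in the same order of genes. Per bin, H3K4me3 over Acta2 stood at 15.9, 14.3 and 15.8 times the genome mean in 10000 cells and at 20.1, 17.4 and 17.2 in 1000 cells. CTCF stood at 7.31, 6.87 and 7.64 in 10000 cells, at 7.14, 6.81 and 6.79 in 1000 cells, and at 6.76 and 6.4 with single staining. The CTCF ranges of Acta2 and Actb did not overlap with dual staining, but did with single staining.

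H3K27ac over Acta2 stood at 2.36, 3.22 and 3.85 times the genome mean in 1000 cells and at 4.67, 3.92 and 3.12 in 100 cells. Pol2S2P stood at 5.37, 4.37 and 6.03 in 1000 cells, at 3.85, 2.72 and 5.11 in 100 cells, and at 5.22 and 5.13 with single staining. The H3K27ac libraries were the lower ones in 1000 cells, and the ranges overlapped in 100 cells.

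Actg2 stood below Acta2 for all targets. H3K4me3 over its span was at 3.95, 3.83 and 5.30 times the genome mean in 10000 cells and at 5.03, 5.08 and 4.79 in 1000 cells. CTCF was at 2.15, 2.13 and 2.21 in 10000 cells, at 2.64, 1.41 and 2.77 in 1000 cells, and at 2.1 and 1.86 with single staining. All H3K4me3 libraries lay above all CTCF libraries. H3K27ac averaged 1.47 ± 0.0717 in 1000 cells and 1.25 ± 0.339 in 100 cells, and Pol2S2P averaged 1.87 ± 0.221 in 1000 cells, 1.57 ± 0.632 in 100 cells (SD, n = 3 each) and 2.06 ± 0.30 with single staining (SD, n = 2).

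The striated muscle actins had group means of at most 2.00 times the genome mean. Acta1 stood at 0, 1.33 and 2.72 times the genome mean for H3K4me3 in 10000 cells, and at 1.73, 1.51 and 2.75 for CTCF. The H3K4me3 mean rests on 10 counts in all, with an exact 95% Poisson interval from 0.652 to 2.50 that covers counting error only. Group means of Acta1 ran from 0.926 to 2.00, and neighbours in that order overlapped in every case. CTCF in 10000 cells gave both ends of that order, and its dual-stained (1.51 to 2.75) and single-stained libraries (0.765 to 1.09) did not overlap.

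Actc1 had the lowest mean of the 6 genes in every group, but its libraries overlapped those of the next gene in 3 groups, H3K4me3 in 10000 cells (Acta1), CTCF in 1000 cells (Actg1) and Pol2S2P in 1000 cells (Acta1). Its span stood at 0.796, 0.381 and 0.519 times the genome mean for H3K4me3 in 10000 cells (7 counts in all, 95% interval 0.219 to 1.12) and at 0.684, 0.861 and 0.462 for CTCF (26 counts, 0.448 to 1.00). H3K27ac in 1000 cells stood at 0, 0 and 0.388 (3 counts in all, 95% interval 0.0257 to 0.364), and Pol2S2P at 0.722, 0.119 and 0.678 (14 counts, 0.284 to 0.871). A level that low for H3K27ac is at the limit of what these libraries can resolve. Across the Actc1 window the highest group mean of any bin was 6.06, for H3K27ac in 100 cells, and it rests on 1 library with 8 counts, the other two being at 0.

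Whether H3K4me3 and CTCF, read from the same cells, separate at actin genes was tested across all genes with edgeR's quasi-likelihood test and Benjamini-Hochberg adjustment at 0.05. Of the 6 actin genes 4 had enough counts in 10000 cells, and all 4 were higher in H3K4me3, with 51.3% of all tested genes higher and 27.6% lower. Actb had a log2 fold change of 2.83 ± 0.12 (SE, adjusted p = 3.496e-56) and Actg1 of 3.79 ± 0.24 (adjusted p = 8.571e-35). Over their spans the smooth muscle actins changed less, Acta2 by 1.07 ± 0.096 (adjusted p = 1.163e-21) and Actg2 by 0.99 ± 0.15 (adjusted p = 2.681e-10). Those spans cover 16 and 24 bins, against 6 for Actb and 3 for Actg1. In the bins highest in H3K4me3, the log2 fold changes were 3.39 for Actb, 3.79 for Actg1, 3.00 for Acta2 and 3.04 for Actg2. Whether span length sets the difference was not tested. The median over all tested genes was 0.39 and becomes -0.06 under TMM scaling, under which, and under DESeq2, the 4 genes stayed past the threshold in the same direction. Acta1 and Actc1 did not pass the filter on low counts and were not tested.

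The same 4 genes were tested in 1000 cells and were again higher in H3K4me3, beside 48.6% of all tested genes higher and 23.6% lower. Log2 fold changes were 2.98 ± 0.18 for Actb, 4.93 ± 0.39 for Actg1, 1.39 ± 0.13 for Acta2 and 1.16 ± 0.20 for Actg2 (SE, adjusted p from 3.01e-59 to 3.025e-08). A test of the difference between the 2 cell numbers called 0 of the 4 genes in edgeR and 0 in DESeq2 (0.0313% of all genes called), with 2 at an unadjusted p under 0.05, Actg1 (-1.16 ± 0.56, adjusted p = 0.5735) and Acta2 (-0.32 ± 0.16, adjusted p = 0.5995).

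Next to the actins, Stambpl1, which lies 3 bases from Acta2 and encodes a deubiquitinase, had a log2 fold change of 1.07 ± 0.098 in 10000 cells (SE, edgeR adjusted p = 5.372e-21), as large as that of Acta2. Fbxl18, 6394 bases from Actb, had -0.06 ± 0.13 (adjusted p = 0.6842), and Nup133, 2339 bases from Acta1, had -0.11 ± 0.12 (adjusted p = 0.3906). Dguok, 5940 bases from Actg2, was higher by 0.61 ± 0.16 (adjusted p = 0.0001954), and Stambp on its other side had 0.27 ± 0.18 (adjusted p = 0.1622).

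**Figure D2:**
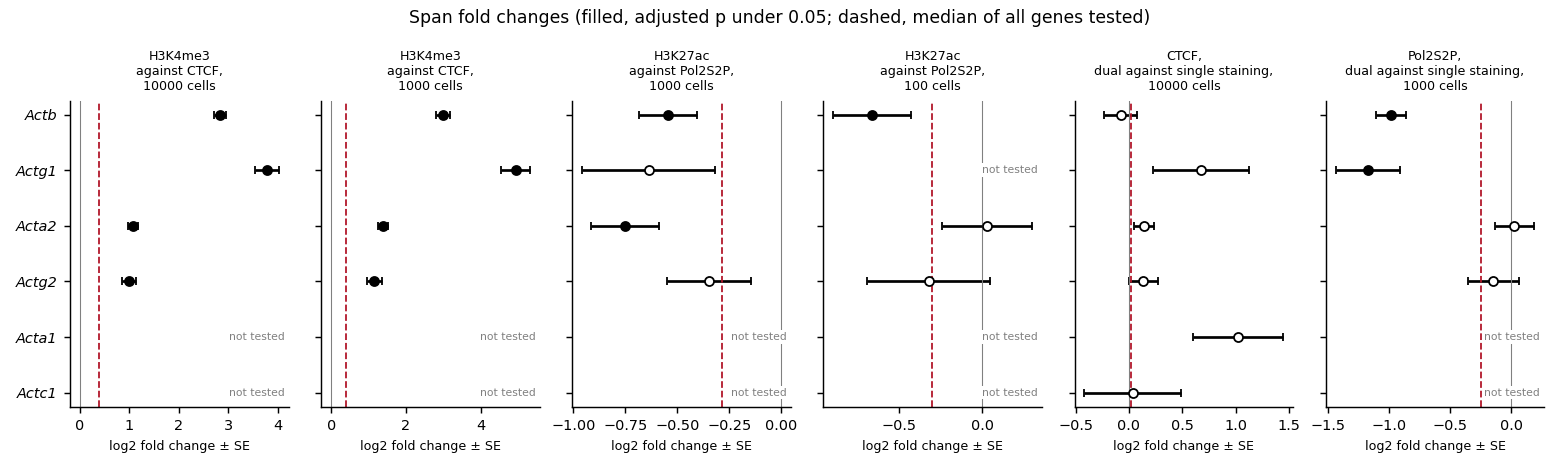
Log2 fold changes (horizontal axis, ± SE, a scale of its own in each panel) of the 6 actin genes over their spans in 4 comparisons of targets and 2 of staining; filled points have an edgeR adjusted p under 0.05, open points do not, and dashed lines mark the median of all tested genes. The 4 tested genes lie to the right of the dashed line for H3K4me3 against CTCF, and Actb and Actg1 to its left for Pol2S2P with dual against single staining.

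Within the windows H3K4me3 was concentrated in a few bins. In 10000 cells its highest bin at Actb, chr5:142904421-142905420 inside the span, stood at 94.7, 97.3 and 74.4 times the genome mean for H3K4me3 and at 7.44, 10.0 and 7.77 for CTCF. At Acta2 the highest bin, chr19:34253866-34254865, stood at 96.6, 70.7 and 104.0 for H3K4me3 and at 9.57, 12.1 and 11 for CTCF. The 1 kb peaks of Actb and Acta2 were thus about equally high, although the span mean of Acta2, over 16 bins, was much the lower. That Acta2 bin lies next to the bin of the annotated start, which averaged 40.0 ± 10.4 (SD, n = 3), and on the gene's side of it.

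At Actg1 H3K4me3 had no single peak bin, at 37.1 ± 4.27 times the genome mean in the bin chr11:120346511-120347510 of the gene and 36.9 ± 10.6 just downstream at chr11:120344511-120345510 (SD, n = 3). The bin between them, chr11:120345511-120346510, was lower, with 7, 6 and 12 counts in the libraries. The gene bin held 18, 27 and 23 counts and the downstream bin 14, 28 and 26. The bin chr11:120346511-120347510 also holds Mir6935. Upstream, the bin chr11:120348511-120349510, which also holds part of the lncRNA 0610009L18Rik, averaged 30.9 ± 5.49. At Actg2 the highest bin, chr6:83534661-83535660 near the higher-coordinate end, stood at 11.1, 21.3 and 43.6 for H3K4me3 and at 1.60, 3.01 and 4.53 for CTCF. The replicates of that bin spread widely but did not overlap those of CTCF, and the lncRNA Gm38844 covers it too.

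CTCF itself peaked elsewhere in the smooth muscle actins. The Acta2 bin chr19:34243866-34244865, in the downstream part of the gene, stood at 9.28, 13.3 and 12.7 times the genome mean for H3K4me3 in 10000 cells and at 31.4, 27.1 and 36.2 for CTCF. A second Acta2 bin, chr19:34240866-34241865, stood at 5.57, 5.33 and 7.26 for H3K4me3 and at 17.0, 19.6 and 18.1 for CTCF. At the lower-coordinate end of Actg2, the bin chr6:83512661-83513660 stood at 1.86, 4 and 9.08 for H3K4me3 and at 12.2, 13.1 and 16.2 for CTCF. In none of the 3 bins did the targets overlap, and CTCF was the higher. CTCF stained alone gave means of 29.4, 16.7 and 13.7 in these bins, close to its dual-stained means of 31.6, 18.2 and 13.8.

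Of the 180 bins, 28 passed the filter on low counts for H3K4me3 against CTCF in 10000 cells, of which 23 were higher in H3K4me3 and 3 lower, against 53.9% of all tested bins higher and 29.4% lower. In 1000 cells 19 were tested, 17 higher and 1 lower, against 71.9% and 19.5%. Those that passed did so through a target that was high there, so the counts say little of the other bins. The 3 lower bins in 10000 cells were the CTCF bins just described, at log2 fold changes of -1.38 ± 0.27 and -1.60 ± 0.38 in Acta2 and -1.46 ± 0.44 in Actg2 (SE, edgeR adjusted p = 3.984e-06, 8.234e-05 and 0.001685). The lower one in 1000 cells was the first of these (-1.68 ± 0.47, adjusted p = 0.0007145). The median over all bins was 1.04 in 10000 cells and 2.27 in 1000 cells, and TMM scaling brought these to 0.08 and 0.18. The share of higher calls then moved to 50.1% from 64.7% in 10000 cells, and to 43.8% from 78.7% in 1000 cells. The peak bins of Actb (3.39 ± 0.20), Acta2 (3.00 ± 0.19), Actg2 (3.04 ± 0.39) and Actg1 (3.79 ± 0.34) exceeded the median of 10000 cells, and kept their calls under TMM scaling and DESeq2. They were picked as the highest in H3K4me3 in these same libraries, so this was largely set by the choice. The CTCF bins were likewise read from their values in these libraries. Of all 23 higher calls in 10000 cells, 21 remained under TMM scaling and 14 under DESeq2. In 1000 cells 8 of the 17 higher calls remained under TMM scaling and 3 under DESeq2, 1 bin of Actb and 2 of Actg1.

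**Figure D3:**
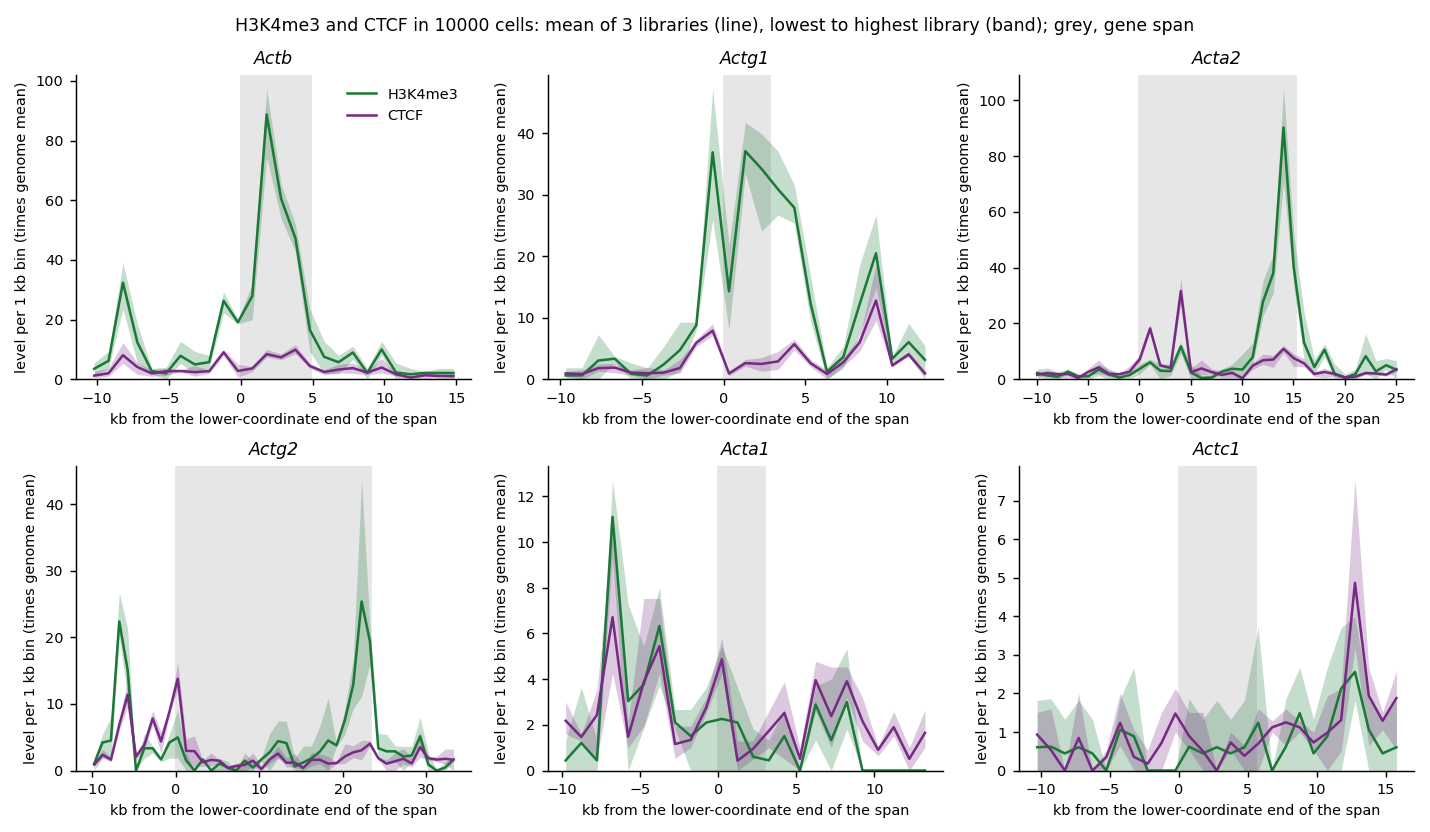
Mean level of H3K4me3 and CTCF with dual staining in 10000 cells (n = 3 libraries each) by 1 kb bin across the windows of the 6 actin genes, in times the genome mean (vertical axis, a scale of its own in each panel), against the distance in kb from the lower-coordinate end of the span (horizontal axis), with the span shaded. H3K4me3 peaks inside the higher-coordinate part of Acta2 and Actg2 and CTCF in their lower-coordinate part, while Acta1 and Actc1 show no peak over the gene.

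H3K27ac and Pol2S2P, a mark of active starts and a mark of elongation, were compared in the same way. In 1000 cells 4 genes were tested over their spans, and Actb (log2 fold change -0.54 ± 0.14, SE, edgeR adjusted p = 0.0003809) and Acta2 (-0.75 ± 0.16, adjusted p = 1.913e-05) were lower in H3K27ac, with 36.2% of all tested genes lower and 10.2% higher. Actg1 had -0.64 ± 0.32 (adjusted p = 0.08924) and Actg2 -0.35 ± 0.20 (adjusted p = 0.1467). The median over all genes was -0.29 and near 0 under TMM scaling. Under TMM scaling Actb had -0.26 (adjusted p = 0.134) and under DESeq2 -0.27 (adjusted p = 0.27), which end its call, and Acta2 lost its call under DESeq2 (-0.47, adjusted p = 0.0912). Actg1 was lower with the span widened by 1 kb on both sides (-0.76, adjusted p = 0.000161).

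In 100 cells 3 of the genes were tested. Actb was lower in H3K27ac (-0.66 ± 0.24, SE, edgeR adjusted p = 0.02167), with 25.9% of all tested genes lower and 8.61% higher, but not under TMM scaling (-0.37, adjusted p = 0.259) or DESeq2 (-0.37, adjusted p = 0.402). Its call was also lost without H3K27ac replicate 1 (-0.44, adjusted p = 0.20) and without Pol2S2P replicate 1 or 2 (-0.63 and -0.65, adjusted p = 0.0647 and 0.0539). Acta2 had 0.03 ± 0.27 (adjusted p = 0.9426) and Actg2 -0.32 ± 0.37 (adjusted p = 0.533). The difference between the 2 cell numbers was called for 0 of 4 genes in edgeR and 0 in DESeq2 (0% of all genes called), with only Acta2 at an unadjusted p under 0.05 (-0.79 ± 0.31, adjusted p = 0.9806).

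Bin by bin, the cytoplasmic actins differed in opposite directions at or beyond the ends of their spans. Bins named for this comparison were picked for a high level of one target in the same libraries. Their directions therefore follow in part from that choice. Pol2S2P peaked at Actb outside the span, in the bin chr5:142901421-142902420 on the lower-coordinate side, where H3K27ac stood at 4.19, 4.36 and 9.96 times the genome mean in 1000 cells and Pol2S2P at 49.8, 37.5 and 37.2. The log2 fold change was -2.75 ± 0.30 (SE, edgeR adjusted p = 8.966e-07). In 100 cells H3K27ac stood there at 12.1, 12.2 and 4.54 and Pol2S2P at 50, 55.1 and 44.0 (-2.33 ± 0.41, adjusted p = 0.0002131). Pol2S2P was far the higher at both cell numbers, with no overlap. That bin is annotated to the lncRNA Gm38733, which overlaps the lower-coordinate end of Actb by coordinates, and counts in it cannot be assigned to either gene.

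At Actg1 the Pol2S2P peak lay just downstream. In the bin chr11:120344511-120345510 H3K27ac stood at 15.1, 10.5 and 6.34 times the genome mean in 1000 cells and Pol2S2P at 36.1, 46.6 and 37.2. In the next bin out, chr11:120343511-120344510, H3K27ac stood at 4.19, 4.36 and 4.53 and Pol2S2P at 31.0, 33.3 and 32.4. Both bins were lower in H3K27ac without overlap, by log2 fold changes of -1.88 ± 0.27 and -2.86 ± 0.31 (SE, edgeR adjusted p = 8.079e-06 and 8.966e-07), and in 100 cells by -2.71 ± 0.47 and -3.10 ± 0.57 (adjusted p = 0.0002128 and 0.0002682). Neither bin overlaps an annotated gene. Both were picked for high Pol2S2P in these libraries, so their direction is not an independent result.

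H3K27ac was highest on the opposite side. At Actb its highest bin, chr5:142908421-142909420 beyond the higher-coordinate end, stood at 16.8, 25.3 and 17.2 times the genome mean in 1000 cells, against 5.77, 15.8 and 4.74 for Pol2S2P. At Actg1 it was the bin of the upstream side, chr11:120348511-120349510, at 14.3, 20.1 and 10.9, against 5.77, 9.16 and 2.37 for Pol2S2P. The targets did not overlap in either bin. The log2 fold changes, 1.19 ± 0.36 and 1.38 ± 0.41 (SE, edgeR adjusted p = 0.006247 and 0.004872), lie close to the median of all tested bins, 0.97, and both calls were lost under TMM scaling (0.27 and 0.46, adjusted p = 0.606 and 0.414) and under DESeq2.

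Of the 180 bins 24 were tested for H3K27ac against Pol2S2P in 1000 cells, 9 of them higher and 10 lower, against 55.9% higher and 9.59% lower over all tested bins. Here too, bins passed the filter on low counts through a target that was high there. Actb held 8 of the lower bins, in an unbroken run of 8 kb from chr5:142897421 to chr5:142905420, and 6 of the higher ones, and Actg1 held 2 of each. In 100 cells 5 were tested, 0 higher (70.8% of all tested bins) and 4 lower (6.55%). TMM scaling brought the median of all bins to 0.05 from 0.97 in 1000 cells and to 0.04 from 1.56 in 100 cells, and the share of higher calls to 34.9% from 85.4% and to 21.5% from 91.5%. Of the 9 higher bins 1 kept its call under TMM scaling, chr5:142909421-142910420 (2.49 ± 0.43 without it and 1.58 with it), and 0 did under DESeq2. TMM scaling turned the direction of the higher bins chr5:142906421-142907420 (-0.10 against 0.82) and chr11:120349511-120350510 (-0.03 against 0.89), while all 10 lower bins stayed lower under TMM scaling and DESeq2.

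**Figure D4:**
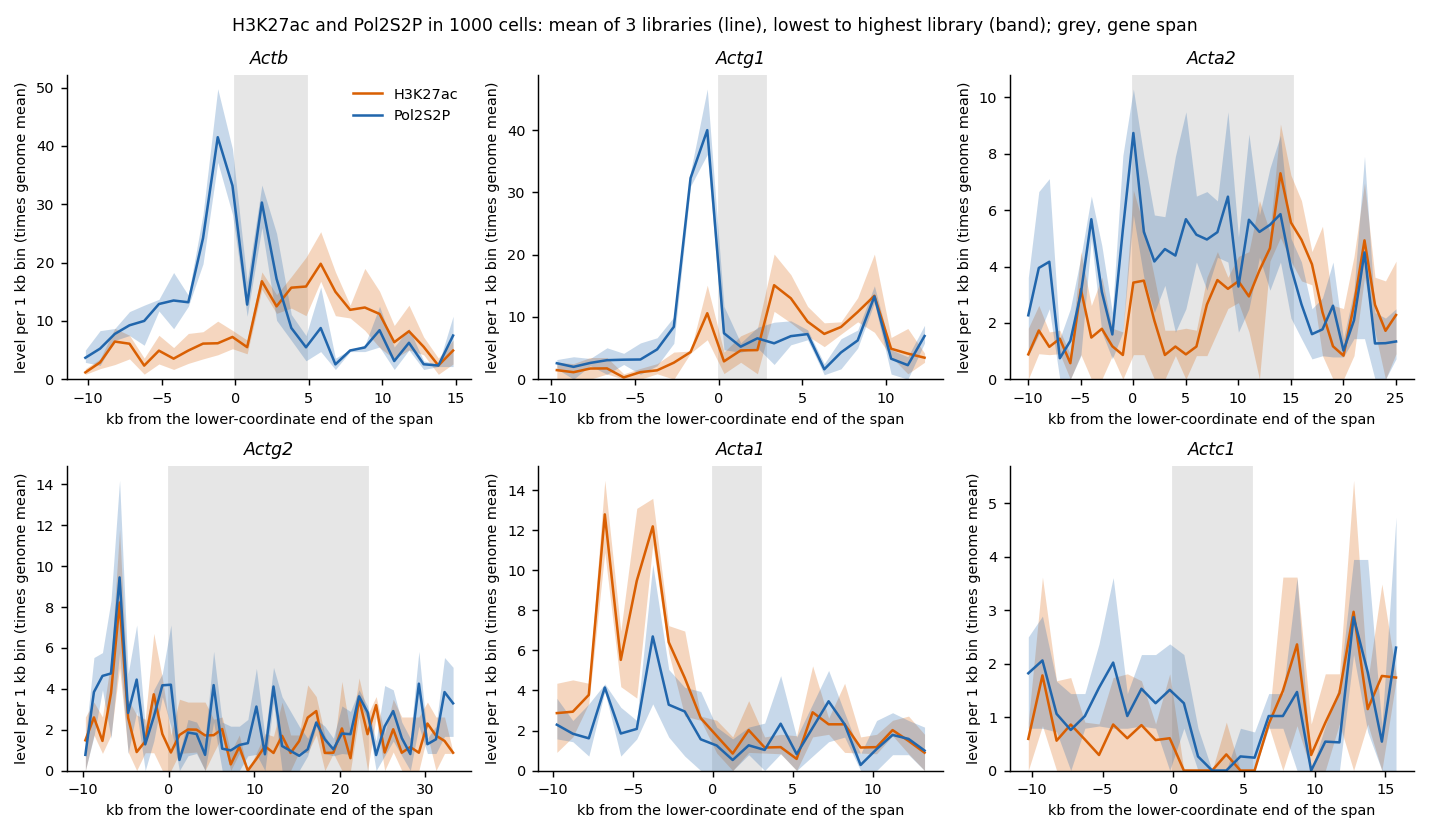
Mean level of H3K27ac and Pol2S2P with dual staining in 1000 cells (n = 3 libraries each) by 1 kb bin across the windows of the 6 actin genes, in times the genome mean (vertical axis, a scale of its own in each panel), against the distance in kb from the lower-coordinate end of the span (horizontal axis), with the span shaded. Pol2S2P peaks beside the lower-coordinate end of Actb (41.5) and Actg1 (40.0), and H3K27ac at the other end (19.8 and 15.1).

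The flanks were also summed over 5 kb downstream, where Pol2S2P is known to run past gene ends; for Actb and Actg2, with no orientation at hand, both flanks were summed. In 1000 cells 5 of the 6 genes were tested and 3 were lower in H3K27ac, with 36% of all tested flanks lower and 6.72% higher. Downstream, Actg1 had -2.12 ± 0.20 (SE, edgeR adjusted p = 4.346e-18) and Acta2 -1.15 ± 0.35 (adjusted p = 0.004785). Actb, with both flanks summed, had -0.50 ± 0.13 (adjusted p = 0.0008686). That value cannot be ranked beside the others, because the flanks of Actb differed in direction. The lower-coordinate flank held 88 counts of H3K27ac and 406 of Pol2S2P, and the other 242 and 115. Acta1 alone of the 5 was higher, by 1.09 ± 0.25 (adjusted p = 0.0002468), and Actg2 had -0.33 ± 0.27 (adjusted p = 0.3261). The median over all flanks was -0.51 and near 0 under TMM scaling, under which Actb was at 0.01 and Acta2 at -0.65 (adjusted p = 0.16), both no longer called, while Actg1 and Acta1 kept their calls there and under DESeq2. The downstream flank of Acta2 is shared with Stambpl1, so its counts cannot be assigned to either gene.

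In 100 cells 4 flanks were tested, with 27.3% of all tested flanks lower and 9.15% higher. Actg1 was lower again (-2.63 ± 0.33, SE, edgeR adjusted p = 4.75e-07) and Acta1 higher again (1.15 ± 0.40, adjusted p = 0.0223). Actb had -0.49 ± 0.20 (adjusted p = 0.05748), which passed the threshold with the replicate number as a block (-0.49, adjusted p = 0.0213) and without H3K27ac replicate 1 (-0.65, adjusted p = 0.0289). The call of Acta1 was lost without H3K27ac replicate 1 or 3 (1.04 and 1.10, adjusted p = 0.084 and 0.058), without Pol2S2P replicate 2 (0.88, adjusted p = 0.119) and with no filter on low counts (1.15, adjusted p = 0.0628).

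H3K27ac downstream of Acta1 was highest in a pair of bins, chr8:123887496-123888495, which averaged 12.2 ± 1.20 times the genome mean in 1000 cells (SD, n = 3), and chr8:123884496-123885495. The second of these stood at 10.9, 13.1 and 14.5 times the genome mean for H3K27ac in 1000 cells and at 4.33, 4.16 and 3.95 for Pol2S2P. In 100 cells it stood at 16.2, 14.2 and 15.9 for H3K27ac and at 5, 1.67 and 0 for Pol2S2P. All 6 H3K27ac libraries lay above all 6 dual-stained Pol2S2P libraries, but not above single-stained Pol2S2P, which stood at 12.7 and 7.56. That bin lies beyond the summed flank of 5 kb, and its log2 fold change of 1.60 ± 0.39 in 1000 cells (SE, edgeR adjusted p = 0.001034) was not called under TMM scaling (0.68, adjusted p = 0.194). H3K4me3 averaged 11.1 ± 1.69 there in 10000 cells and CTCF 6.71 ± 3.22 (SD, n = 3 each), so every target stood higher there than over the span of Acta1.

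The split between the sides of a gene can be given without any scaling between libraries, as the share of a library's counts in both 5 kb flanks that fell on the lower-coordinate side. At Actb it was 25.4, 22.7 and 32.1% for H3K27ac in 1000 cells and 80.2, 72.6 and 81.3% for Pol2S2P. In 100 cells it was 40.0, 31.7 and 20.9% for H3K27ac and 84.2, 76.0 and 80.6% for Pol2S2P, and Pol2S2P stained alone gave 84.0 and 84.8%. No H3K27ac library reached the range of Pol2S2P. H3K4me3 averaged 57.5% ± 4.57 in 10000 cells and CTCF 56.2% ± 6.56 (SD, n = 3 each), near an even split.

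Actg1 had the same split. The downstream share was 28.3, 28.7 and 25.4% for H3K27ac in 1000 cells and 72.0, 79.4 and 80.6% for Pol2S2P, and in 100 cells 21.4, 21.7 and 38.5% for H3K27ac and 84.3, 73.5 and 80.7% for Pol2S2P. Again no library overlapped. At Acta2 the share in 1000 cells averaged 37.9% ± 3.93 for H3K27ac and 64.4% ± 15.9 for Pol2S2P, and at Acta1 79.9% ± 6.07 for H3K27ac and 60.0% ± 10.9 for Pol2S2P (SD, n = 3 each), so that Acta1 ran the other way. Counts there were fewer, with exact 95% binomial intervals of 27.6 to 50.6% and 56.7 to 75.1% for Acta2 and of 72.0 to 85.3% and 50.4 to 69.7% for Acta1. At Actg2 CTCF was uneven, with 79.1% ± 3.98 in 10000 cells on the lower-coordinate side, where H3K4me3 had 49.1% ± 7.54 (SD, n = 3 each). Pol2S2P at Actg2 leaned to the same side, with a pooled 65.6% in 1000 cells (exact 95% interval 54.8 to 75.3%) and 67.7% with single staining (54.7 to 79.1%), but 54.5% in 100 cells (38.8 to 69.6%). These shares are a description, with no test.

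**Figure D5:**
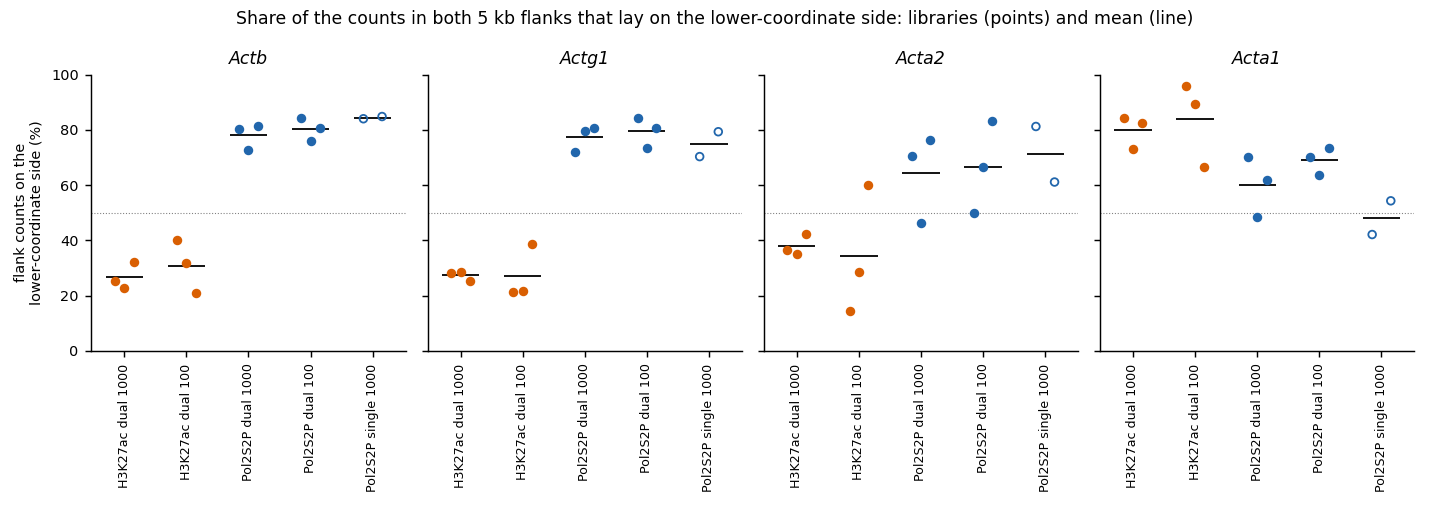
Share of the counts in both 5 kb flanks that fell on the lower-coordinate side (vertical axis, percent, from 0 to 100). Points are the libraries of H3K27ac and Pol2S2P at Actb, Actg1, Acta2 and Acta1, and lines the mean. At Actb and Actg1 the H3K27ac libraries lie between 20.9 and 40.0% and the Pol2S2P libraries between 70.3 and 84.8%.

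Whether fewer cells changed the maps was tested within each target. In H3K4me3, 10000 against 1000 cells called 0 of 4 tested actin genes in edgeR and 0 in DESeq2, with 1.75% of all genes called, and 1 gene, Acta2, had an unadjusted p under 0.05 (-0.24 ± 0.12, adjusted p = 0.3035). In CTCF, 0 of 3 were called by either tool (0.0357% of all genes) and 0 had such a p. H3K27ac in 1000 against 100 cells called 0 of 4 by either tool (0% of all genes), again with 0 at that p. Pol2S2P called 0 of 4 by either tool (0.0132%), and 1 gene, Acta2, had an unadjusted p under 0.05 (0.46 ± 0.21, edgeR adjusted p = 0.6823). Their log2 fold changes lay between -0.33 for Acta2 in H3K27ac and 0.47 for Actg1 in Pol2S2P, with SEs of 0.11 to 0.49, so that small differences were not detectable at this depth.

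Whether staining a second target in the same cells changed CTCF was tested next. Dual against single staining in 10000 cells called 0 of 6 in edgeR and 0 in DESeq2, with 0.931% of all genes called. Acta1 alone had an unadjusted p under 0.05 (1.03 ± 0.42, edgeR adjusted p = 0.2825), with 1.73, 1.51 and 2.75 times the genome mean under dual and 0.765 and 1.09 under single staining, which do not overlap. Actg1 had 0.68 ± 0.45 (edgeR adjusted p = 0.6022), and its libraries did not overlap either, at 1.77, 2.34 and 1.94 under dual and 1.02 and 1.45 under single staining. Both rest on few counts, with 17 in all for each gene under single staining. The other 4 genes had log2 fold changes from -0.08 for Actb to 0.14 for Acta2, with SEs of 0.093 to 0.45.

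Pol2S2P differed. With dual staining in 1000 cells 2 of the 4 tested actin genes, both cytoplasmic, were lower than with single staining, with 35.6% of all tested genes lower and 9.93% higher. Actb stood at 15.5, 19.6 and 18.8 times the genome mean with dual and 36.2 and 34.7 with single staining (-0.99 ± 0.12, SE, edgeR adjusted p = 3.515e-11). Actg1 had -1.18 ± 0.26 (adjusted p = 0.0001524), but -0.92 under DESeq2 (adjusted p = 0.0845) and -0.81 without single-stained replicate 1 (adjusted p = 0.0846), which end its call. Acta2 had 0.02 ± 0.16 (adjusted p = 0.9151) and Actg2 -0.15 ± 0.21 (adjusted p = 0.5823), which turned positive under TMM scaling and DESeq2. The median over all genes was -0.25, and TMM scaling moved the share of higher calls to 54.5% from 21.8%. The groups differ in staining and also hold different libraries, so a library effect cannot be told apart from that of staining. Outside the span, the Pol2S2P peak of Actb averaged 41.5 ± 7.21 with dual (SD, n = 3) and 77.3 ± 2.47 with single staining (SD, n = 2), and that of Actg1 40.0 ± 5.81 and 75.9 ± 7.15.

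Other genes of the actin cytoskeleton were read from 4 lists. For H3K4me3 against CTCF in 10000 cells, 17 of 20 genes of actin turnover and nucleation were higher and 2 lower (median log2 fold change 1.54, against 0.39 over all genes, of which 51.3% were higher and 27.6% lower). They included the monomer binders Tmsb4x (3.10 ± 0.17) and Pfn1 (3.06 ± 0.11) on the high side, and the severing protein Gsn (-0.54 ± 0.097) and the formin Diaph1 (-0.37 ± 0.067) on the low side. Of 23 tested stress fibre and smooth muscle contractile genes (24 listed), 19 were higher and 1 lower (median 1.41, beside the same shares), with the myosin light chain Myl6 (2.40 ± 0.12) and the focal adhesion protein Zyx (2.26 ± 0.090) highest and the smooth muscle myosin Myh11 (-0.93 ± 0.12) lower.

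Of the sarcomere genes 2 of 24 tested were higher and 18 lower (30 listed, median -0.97). The 2 higher ones were Cfl2, the muscle cofilin (2.39 ± 0.14), and Mylpf, the fast muscle myosin light chain (1.04 ± 0.21), and the slow muscle troponins Tnnt1 (-1.75 ± 0.32) and Tnni1 (-1.46 ± 0.14) were among the lower ones. Among 4 regulators, Srf, serum response factor itself, was higher (2.17 ± 0.13), and its coactivators Myocd (-1.06 ± 0.11) and Mrtfa (-0.20 ± 0.051) were lower. In 1000 cells, where 48.6% of all genes were higher and 23.6% lower, the counts were 16 higher and 2 lower of 20 for turnover (median 1.61), 19 and 1 of 22 for stress fibre (1.48), 3 and 16 of 20 for sarcomere genes (-0.84), and 1 and 2 of 4 for the regulators (-0.06), against a median of 0.40 over all genes.

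For H3K27ac against Pol2S2P in 1000 cells the lists held calls in both directions. Turnover genes were 3 higher and 11 lower of 20 (median -0.42, against -0.29 over all genes, of which 10.2% were higher and 36.2% lower), stress fibre genes 6 and 8 of 23 (-0.13), sarcomere genes 4 and 5 of 26 (-0.36) and the regulators 2 and 1 of 4 (0.38). The share of stress fibre genes that were lower was close to that over all genes. The formin Diaph3 (-1.44 ± 0.052) and the Arp2/3 subunit Arpc1b (-0.91 ± 0.16) were lower, and Gsn (0.84 ± 0.10) and the troponin Tnnt2 (1.21 ± 0.13) higher. TMM scaling turned the balance of the stress fibre genes to 11 higher and 5 lower and that of the sarcomere genes to 6 and 3, and left the turnover genes at 5 and 6. In 100 cells, with 8.61% of all genes higher and 25.9% lower, turnover genes were 4 higher and 7 lower of 19 (median -0.31, against -0.30 over all genes), stress fibre genes 5 and 5 of 21 (0.21), sarcomere genes 4 and 2 of 14 (-0.12), and the regulators 2 and 1 of 4 (0.41), and TMM scaling turned the turnover genes to 5 and 3.

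The lists' downstream flanks differed among themselves. In 1000 cells 0 of 19 tested turnover genes were higher in H3K27ac and 14 lower (median -1.05, against -0.51 over all flanks, of which 6.72% were higher and 36% lower), and 0 of 22 stress fibre genes were higher and 16 lower (-1.10). Arpc1b (-2.20 ± 0.26) and the filamin Flna (-2.61 ± 0.31) were among the lowest. Sarcomere genes had 2 higher and 5 lower of 14 (-0.14), but 3 and 2 under TMM scaling, and the regulators 1 higher, Myocd (0.84 ± 0.31), and 1 lower, Mrtfa (-1.03 ± 0.42), of 3. DESeq2 left 0 higher and 1 lower of the turnover genes and 1 and 4 of the stress fibre genes.

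For Pol2S2P with dual against single staining, 0 turnover genes were higher and 15 lower of 20 (median -0.52, against -0.25 over all genes, of which 9.93% were higher and 35.6% lower), and 0 and 15 of 23 stress fibre genes (-0.47). The depolymerising factor Cfl1 (-1.10 ± 0.22) and the transgelin Tagln2 (-1.32 ± 0.16) were among the lower ones. Sarcomere genes had 4 higher and 1 lower of 27 (0.19). Under TMM scaling the counts were 1 higher and 5 lower for turnover, 2 and 8 for stress fibre and 9 and 0 for sarcomere genes. For CTCF with dual against single staining Arpc1b was higher (0.49 ± 0.14) and the capping protein Capzb lower (-0.27 ± 0.072), and no other list member was called; neither call held under DESeq2. Between cell numbers no member of the 4 lists was called in edgeR in any target.

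Over the 28 libraries, the genes whose levels ran most like those of Actb were Vim (Pearson's r = 0.983), Lrrc58 (0.98) and Abcf3 (0.979), among 8589 genes with at least 10 counts in every library. Vim encodes vimentin, the intermediate filament protein of mesenchymal cells. For Acta2 they were Wrap53 (0.945), Zfp516 (0.942) and Card6 (0.941), and for Actg2 Trip10 (0.927), Atpaf2 (0.921) and Lmbr1l (0.92). These correlations of log2 levels run over 10 groups of 4 targets that share targets and depths, so they are a description only. Actg1, Acta1 and Actc1 were not tested in all 4 comparisons of targets and were left out of this ranking.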

How the data were processed

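The authors deposited unscaled whole-number counts for each library in bins of 1 kb. The submitters' processing notes name bcl2fastq, HISAT2 2.1.0, deepTools 3.3.1 and GRCm38, without their order. The treatment of duplicates, multiple alignments and barcodes is not given in sources used here. Samples were grouped by their titles. Of 34 labelled samples 28 matched a column by name, and 6 were not analysed here, while a further 4 columns had no matching sample and were left aside. No label gives replicates separate cultures. A p-value therefore covers the spread between these libraries, possibly technical. Without mention of molecular identifiers, intervals cover counting error only.

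Library sizes of 719766 to 6653298 were set by counts on the autosomes and X, without 9 bins. Those bins had a mean over 50 times the genome mean in each of the 10 groups. Counts in all bins touching a RefSeq span (GRCm38.p6) were summed. A bin can hold several genes. Groups were compared with edgeR 4.0.16 (quasi-likelihood test, filterByExpr, no further scaling, Benjamini-Hochberg over all features, threshold 0.05) in R 4.3.3, using the libraries compared only. Every SE is the log2 fold change divided by the root of the F statistic. The scripts were tested on simulated data. Alternatives were TMM scaling, DESeq2 1.42.0, other filters, wider spans and flanks, a replicate block and leaving out each library. Same-numbered H3K27ac and Pol2S2P libraries deviated together (r from 0.128 to 0.159 in 1000 cells and from 0.112 to 0.13 in 100 cells), where the labels give both targets of a staining the same number. These were taken as paired, but the main tests left the pairing out, and the replicate number entered only in the block alternative. Genes named beyond the members are, per list and comparison, at most 2 called in each direction with the largest fold change, annotated neighbours, and the 3 with the highest correlation. The members, lists, tests and names were chosen with earlier results of these data known. Python 3.11.15 (numpy 2.4.6, pandas 2.3.3, scipy 1.17.1, matplotlib 3.10.9) and data.table, version 1.17.8, were used.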

Additional observations from a re-analysis of the deposited data

How the results depend on the processing

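Values here are numbers of genes, bins or flanks called, or log2 fold changes of actin genes. Of the actin genes' span and flank values, TMM scaling left 49 with the same direction and call, ended 3 calls and turned 5; DESeq2 left 40, ended 5 and turned 5, and 20 of the values that leave out a library turned. Every value that turned belonged to a gene not called, except Actb's flanks and some bins given here. The cause of none of these shifts was tested.

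DESeq2 called 4379 genes for H3K27ac against Pol2S2P in 1000 cells (7380 with edgeR) and 2414 in 100 cells (4296). For H3K4me3 in 10000 against 1000 cells it called 27 (243 with edgeR, 76 to 199 without a library). For CTCF, where edgeR called 6, TMM scaling called 14, DESeq2 1, no filter on low counts 28, the replicate block 14 and wider spans 12, with 0 to 13 without a library. For H3K27ac in 1000 against 100 cells edgeR called 0, TMM scaling 1, and 0 to 2 without a library; for Pol2S2P edgeR called 2, DESeq2 1, wider spans 1, and 0 to 5 without a library. CTCF with dual against single staining gave 164, but 19 with DESeq2, 102 with the replicate block and 43 to 101 without a library. Pol2S2P gave 7566, but 2548 with DESeq2 and 4663 to 6947 without a library. The difference between cell numbers in H3K4me3 against CTCF called 5 genes, 1 with DESeq2 and 0 to 7 without a library.

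For bins of H3K4me3 against CTCF, 36683 were called in 10000 cells, and 55512 with all bins of at least 10 counts. In 1000 cells 15156 were called, 9481 under TMM scaling, 6313 with DESeq2, 35500 with at least 10 counts and 15934 to 23562 without a library. For H3K27ac against Pol2S2P 12223 were called in 1000 cells, 5487 under TMM scaling and 3529 with DESeq2. In 100 cells it was 1371, 311 under TMM scaling, 207 with DESeq2, 2244 with at least 10 counts and 1853 to 2738 without a library. Flanks called were 4237 in 1000 cells (1587 with DESeq2) and 1150 in 100 cells (594 with DESeq2, 2601 with flanks of 10 kb).

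Under TMM scaling and DESeq2, in that order, these log2 fold changes turned: Actb for H3K4me3 in 10000 against 1000 cells (-0.0217, -0.0316), Actg2 for Pol2S2P with dual against single staining (0.0927, 0.0973), the flanks of Actb in 1000 cells (0.00981, 0.0155), and those of Actg2 in 1000 (0.173, 0.177) and 100 cells (0.216, 0.214). For H3K4me3 against CTCF, the bins turned at chr11:120354511 in 10000 cells (-0.251, -0.51), and at chr5:142894421 (-0.133, -0.269), chr5:142901421 (-0.317, -0.43) and chr19:34251866 (-0.252, -0.38) in 1000 cells. For H3K27ac against Pol2S2P in 1000 cells they turned at chr5:142906421 (-0.0985, -0.106) and chr11:120349511 (-0.0306, -0.0376).

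With spans widened by 1 kb, Actg2 turned for CTCF between cell numbers (0.0445), Actc1 (-0.0553) and Actb (0.0421) for CTCF with dual against single staining, and Actg2 (0.0154) and Actg1 (0.0776) in the difference of H3K27ac against Pol2S2P between cell numbers. With the replicate block, Acta2 turned for Pol2S2P with dual against single staining (-0.0775), and the flanks of Actb in 100 cells became called; the block changed no other call of an actin gene. H3K4me3 and CTCF libraries of one number correlated at 0.0227 to 0.0581 in 10000 cells and 0.0675 to 0.0813 in 1000 cells, too low to take as paired, though all 3 correlated best with their own number.

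Without 1 library at a time, values ran across 0 for Acta2 in H3K27ac against Pol2S2P, 100 cells (-0.177 to 0.256). Between numbers of cells they did so for H3K4me3 at Actb (-0.0161 to 0.104) and Actg1 (-0.225 to 0.0219), CTCF at Actg2 (-0.328 to 0.185), H3K27ac at Actb (-0.124 to 0.256) and Actg1 (-0.214 to 0.19), and Pol2S2P at Actb (-0.0839 to 0.0793) and Actg2 (-0.0397 to 0.592). With dual against single staining they did so for CTCF at Actc1 (-0.0886 to 0.21) and Pol2S2P at Actg2 (-0.271 to 0.0274) and Acta2 (-0.0815 to 0.135). In the differences between cell numbers they did so at Actg2 for H3K4me3 against CTCF (-0.387 to 0.124) and at Actb (-0.104 to 0.276) and Actg2 (-0.357 to 0.273) for H3K27ac against Pol2S2P. Where single staining was left with 1 library, it was taken to vary like the other group. Flanks of 10 kb, tried for the share of flank counts after seeing the data, gave mean lower-coordinate shares of 31.2% for H3K27ac and 73.2% for Pol2S2P at Actb, and 22.6% and 63.7% at Actg1, in 1000 cells. Depth limits Acta1, Actc1 and single bins most.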
